A study of Mus musculus with 2 samples.

Results

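The miRNAs described here are miR-193a-3p, miR-193b-3p and miR-365-3p, 3 of the 739 probes on an array that compared 2 mouse epidermal keratinocyte lines. Pam212 is a spontaneously transformed line from Balb/c mice and is labelled non-metastatic. LY-1, also Balb/c, is its metastatic derivative. Both lines were grown to confluency in DMEM with 10% FCS and received no treatment, and 1 plate of each went onto 1 array, so a difference between the lines cannot be told apart from a difference between these plates or arrays. The 3 probes were chosen by accession (MIMAT0000223, MIMAT0004859 and MIMAT0000711) with their lower reading in LY-1 already known, so their values are given as a description and without a test. The miRNA names came with that choice. The deposited table holds accessions only, and 0 of its 747 accessions occurred in the RefSeq tables used here, so no other probe is named.

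MicroRNAs guide silencing complexes to messenger RNAs mainly through the seed, bases 2 to 8 of the mature strand, and lower the output of the messages that carry a matching site. The miR-193 and miR-365 genes are clustered in mammals, and miR-193b and miR-365 were studied as restraints on tumour growth in chemically induced squamous carcinoma of mouse skin. In human tumour cells, miR-193b acts on the messages of cyclin D1 and of urokinase-type plasminogen activator, a protease used in invasion, and miR-365 on those of cyclin D1 and BCL2. None of these targets was measured on the array.

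The mature sequences show which of the 3 miRNAs share a seed. They are from RefSeq on build GRCm38.p6, written 5′ to 3′ with the seed in capitals.

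miR-193a-3p: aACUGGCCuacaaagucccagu

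miR-193b-3p: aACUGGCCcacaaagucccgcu

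miR-365-3p: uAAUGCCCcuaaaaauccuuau

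miR-193a-3p and miR-193b-3p carried the same seed, whose perfect match in a message reads GGCCAGU, and no other name among the 1679 mature mouse names in the RefSeq table had it. Counted from 1 at the 5′ end and from miR-193a-3p to miR-193b-3p, they differed by U9C, A20G and G21C, with 19 of 22 bases identical (86.4%). How far either probe also captured the other miRNA was not tested. miR-365-3p had a different seed, matched by GGGCAUU, that no other mouse name in the table shared over bases 2 to 8 or over bases 2 to 7. It was also poorer in G and C, at 31.8% against 50.0% for miR-193a-3p, 59.1% for miR-193b-3p and a median of 52.2% over the mature sequences of the table.

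The hairpins below show that each miR-193 gene lies beside a miR-365 gene, with the measured 3p strand in capitals and all on the plus strand of GRCm38.p6. Mir193a is at chr11:79711969-79712034 and Mir365-2 at chr11:79726400-79726511, and Mir193b is at chr16:13449523-13449601 and Mir365-1 at chr16:13453840-13453926.

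Mir193a: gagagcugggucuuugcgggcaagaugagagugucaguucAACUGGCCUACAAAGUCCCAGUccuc

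Mir365-2: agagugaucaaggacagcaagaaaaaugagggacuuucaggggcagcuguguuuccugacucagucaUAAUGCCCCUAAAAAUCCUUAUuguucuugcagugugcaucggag

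Mir193b: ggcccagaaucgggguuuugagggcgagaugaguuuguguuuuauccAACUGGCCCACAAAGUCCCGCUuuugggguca

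Mir365-1: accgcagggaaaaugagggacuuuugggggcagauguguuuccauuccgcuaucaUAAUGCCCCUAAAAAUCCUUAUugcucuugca

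On chromosome 11, 14365 bases separated the hairpins, and on chromosome 16, 4238 bases did. No further annotated hairpin lay within 10000 bases of either pair. In the RefSeq annotation the chromosome 16 hairpins both lay within the spans of the long non-coding RNA genes Gm32817 and Gm53058, and no other annotated gene spanned either hairpin on chromosome 11. Both miR-365 hairpins encode the same mature 3p strand, so the miR-365-3p probe cannot tell the 2 loci apart. How much each locus contributed to its reading was not tested. The miR-193a-3p and miR-193b-3p strands each came from 1 locus. On the opposite arms the loci differed: miR-193a-5p and miR-193b-5p were identical at 17 of 22 bases, and miR-365-1-5p and miR-365-2-5p at 20 of 23. The levels of these 5p strands were not analysed here, because their accessions could not be matched to names.

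**Figure D1:**
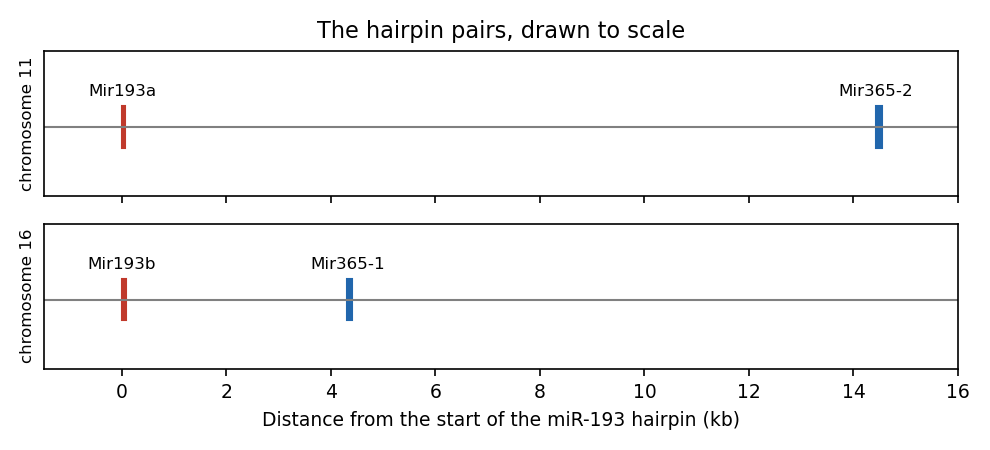
Positions of the miR-193 and miR-365 hairpins on chromosome 11 (top) and chromosome 16 (bottom), in kb from the start of the miR-193 hairpin of each chromosome. Boxes are hairpins drawn to scale, and the gap is 14365 bases in the upper pair and 4238 bases in the lower.

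All 3 probes had a value on both arrays. Intensities are in array units on a linear scale, with a median over measured probes of 2.16 in Pam212 and 2.44 in LY-1. The miR-193a-3p intensity was 72.4 in Pam212 against 22.5 in LY-1. Its log2 difference, LY-1 minus Pam212, was -1.68, which is 3.21-fold lower in LY-1. It was brighter than 88.9% of the probes measured in Pam212 and 79.2% of those measured in LY-1, and its rank from the brightest went from 51 of 460 to 91 of 437.

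miR-193b-3p, the other miRNA with this seed, had an intensity of 29.7 in Pam212 against 9.86 in LY-1. The log2 difference was -1.59, a 3.01-fold lower reading in LY-1. Its rank went from 85 to 122, and both values stayed in the upper part of the array, above 81.5% and 72.1% of the measured probes. As with miR-193a-3p, both readings were several times the median of their array. RNA from whole cultures does not tell fewer cells that hold a miRNA apart from less of it per cell.

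The miR-193 pair had nearly the same difference. The log2 difference of miR-193a-3p minus that of miR-193b-3p was -0.09, a ratio of 1.07 between the fold changes. Ordered from the lowest difference in the deposited values, they stood 5 and 6 among 252 probes, with no other probe between them. These 252 had a value on both arrays, and their brighter value reached the pooled median of both arrays, 2.26 units. Of the 460 probes measured in Pam212, 354 also had a value in LY-1, and those without one have no place in this order. The 3 probes before miR-193a-3p reached down to -2.42, and the 3 after miR-193b-3p from -1.59 to -1.34. Levels of the pair are not set against each other, because probes differ in how brightly they report the same amount of RNA.

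miR-365-3p, encoded beside both miR-193 genes, ranked lowest of the 3 in intensity on both arrays. Its intensity was 3.40 in Pam212 against 1.52 in LY-1. The log2 difference was -1.16, a 2.24-fold lower reading. It was brighter than 61.3% of the probes measured in Pam212 and 32.0% of those measured in LY-1, and its rank went from 178 to 297. The LY-1 value lay below the pooled median, and 141 of the 437 LY-1 values were at or below it. The difference of miR-193b-3p minus that of miR-365-3p was -0.43, so the miR-193b-3p reading was lower by a factor 1.34 times that of miR-365-3p. miR-365-3p stood 11 of 252 from the lowest difference, and 4 probes lay between it and miR-193b-3p. The next 3 on the lower side ran from -1.55 to -1.22, and the next 3 on the other from -1.15 to -1.11.

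**Figure D2:**
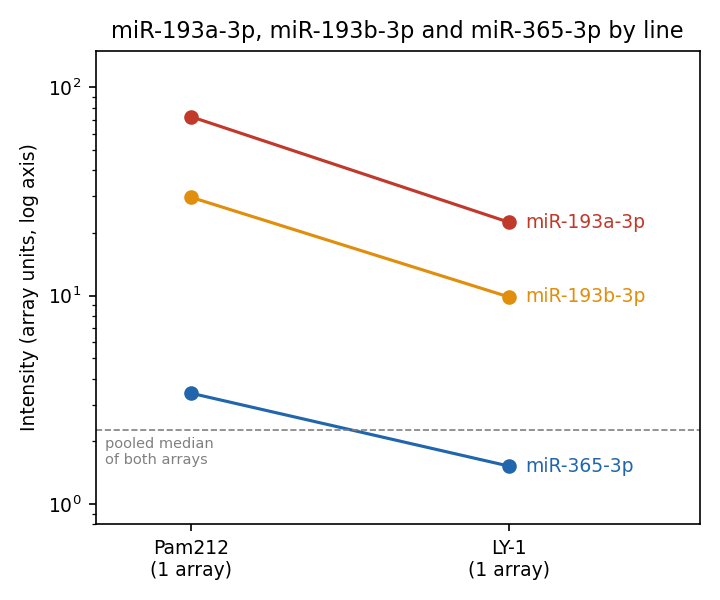
Intensity of miR-193a-3p, miR-193b-3p and miR-365-3p in Pam212 and LY-1, on a log axis in array units, with 1 array per line and no error bars. All 3 lines slope down from Pam212 to LY-1, and the miR-365-3p value of 1.52 in LY-1 lies under the dashed pooled median of 2.26.

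Of the 3 miRNAs, 3 were at least 2-fold lower in LY-1, where 6.35% of the 252 probes past the floor were (16 probes). With the floor required of both arrays, 2 of the 3 were still counted, miR-365-3p dropping out, and 3.23% of 186 probes were 2-fold lower. At least 2-fold higher were 32 probes (12.7%), and the 3 miRNAs were not among them. The probes were chosen on this same contrast, so the count gives no information beyond their values. The median log2 difference of the 252 probes was 0.03, and 122 of them (48.4%) read lower in LY-1 by any amount. With the 75th percentile of each array set equal, the split was 17 higher and 48 lower in place of 32 and 16, and after quantile normalization 27 and 22. Adding 1.02, 2.26 or 11.0 units to both arrays before the log left 8, 7 and 2 lower probes, among them 2, 2 and 1 of the 3 miRNAs. The 75th percentile scaling shifted the median difference of the 354 probes measured on both arrays to -0.49. Relative to that median, the differences were -1.68 for miR-193a-3p, -1.59 for miR-193b-3p and -1.16 for miR-365-3p. They are necessarily the same as relative to the median of the deposited values, because this scaling shifts all probes alike.

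**Figure D3:**
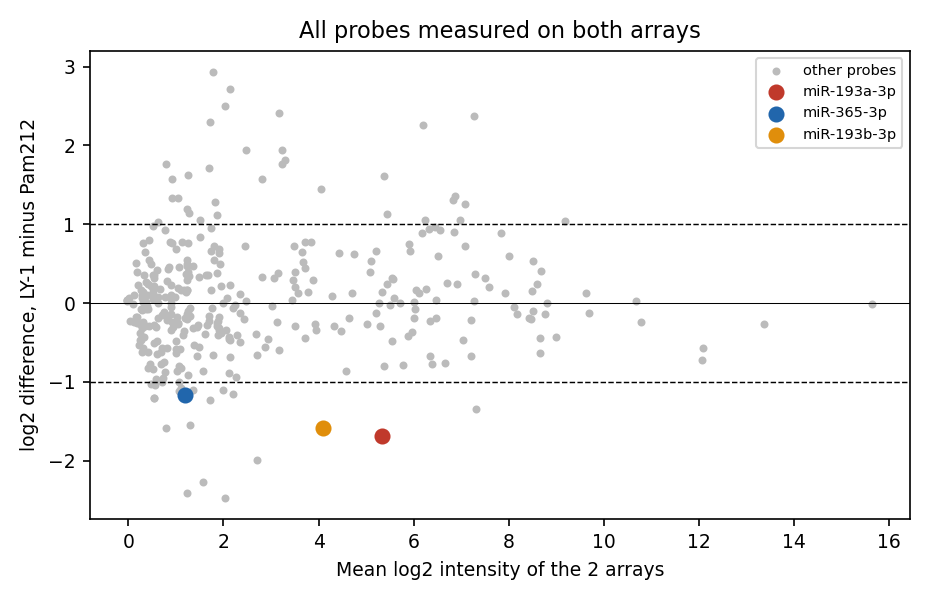
Log2 difference, LY-1 minus Pam212, against mean log2 intensity for the 354 probes measured on both arrays, with dashed lines at 2-fold. miR-193a-3p and miR-193b-3p lie at -1.68 and -1.59, and none of the 40 other probes nearest to each in mean brightness reads as low. miR-365-3p lies at -1.16 among the dim probes at the left. The miRNAs were chosen for a low LY-1 reading, so these places follow in part from the choice.

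Each miRNA was then set beside probes of like brightness. Among the 40 other probes nearest to miR-193a-3p in mean brightness, log2 differences ran from -0.87 to 2.25, with a median of 0.12 and an SD of 0.65. None of these 40 read as low as miR-193a-3p, none was 2-fold lower, and 4 were 2-fold higher. The SD is a spread between probes on single arrays, not an error of a measurement. Around miR-193b-3p the 40 nearest ran from -0.87 to 2.41, with a median of 0.29 and an SD of 0.72, and again none was 2-fold lower. The sets overlap, since both miRNAs are of middling to high brightness. Relative to these medians miR-193a-3p was at -1.81 and miR-193b-3p at -1.88. Both were chosen for a low LY-1 reading, so their place below these sets follows in part from the choice.

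miR-365-3p lay among dim probes. Its 40 nearest probes had differences from -2.42 to 1.63, with a median of 0.04 and an SD of 0.81. At or below the miR-365-3p difference were 2 of them, and 4 were at least 2-fold lower and 4 at least 2-fold higher. Differences of this size were thus present in both directions at its brightness, and relative to the median of the set it was at -1.20.

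**Figure D4:**
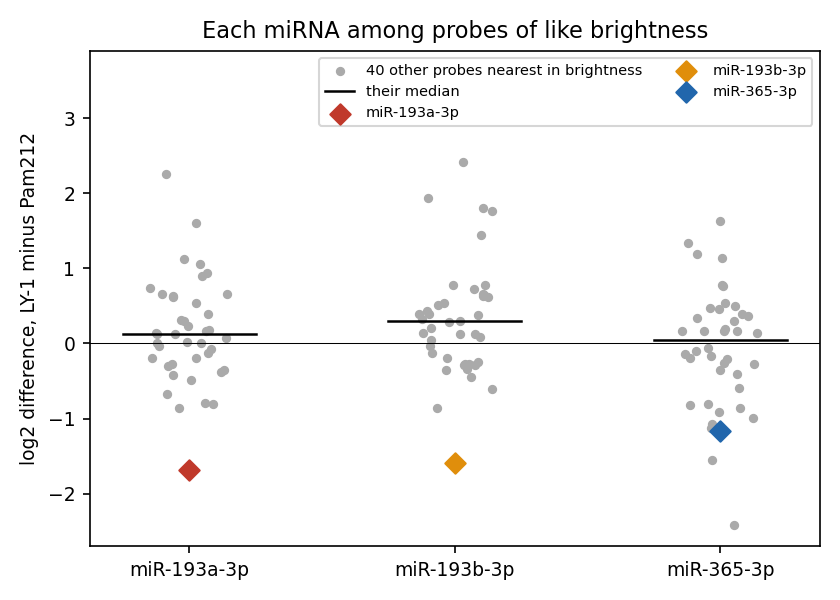
Log2 difference of each miRNA (diamonds) beside the 40 other probes nearest to it in mean log2 intensity (grey points, spread sideways at random for legibility) with their median (black bar). The miR-193a-3p and miR-193b-3p diamonds lie below all their grey points, and 2 grey points lie below miR-365-3p. The miRNAs were chosen for a low LY-1 reading, so these places follow in part from the choice.

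Probes were also matched on Pam212 intensity alone, as a description of how the rest of the array moved from a like starting value. Within 1.5-fold of the Pam212 reading of miR-193a-3p were 31 other probes, with a median log2 difference of 0.18, and 21 of them read higher in LY-1. Near miR-193b-3p were 20, with a median of 0.19, and 13 read higher. Near miR-365-3p were 77, of which 2 had no LY-1 value, and the other 75 had a median of -0.28, with 22 higher. In LY-1, 9 of these 75 read at or below miR-365-3p, while 0 of the 31 and 0 of the 20 read at or below their miR-193 member. The 3 miRNAs were chosen for a low LY-1 reading, so their places in these sets follow in part from the choice.

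In intensity on both arrays together, the probe most like miR-193a-3p was MIMAT0004211, at 54.8 in Pam212 and 31.4 in LY-1, a Euclidean distance of 0.62 on the 2 log2 axes. The one most like miR-193b-3p was MIMAT0009455, at 32.1 and 17.6, a distance of 0.84. Their log2 differences were -0.80 and -0.87, smaller in size than those of the miR-193 pair. The 3 nearest probes to miR-365-3p lay closer, at distances up to 0.195 on the same axes, and had intensities of 2.98 to 3.12 in Pam212 against 1.43 to 1.49 in LY-1. This likeness rests on 1 array of each line.

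The readings of the miR-193 pair moved less with the treatment of low values than that of miR-365-3p did. That follows from brightness, because a constant added before the log shrinks the difference of a dim probe more. With 1.02 units, the 5th percentile of all values, added to both arrays, the log2 difference was -1.64 for miR-193a-3p and -0.80 for miR-365-3p, and miR-193b-3p was 2.82-fold lower in LY-1. With the pooled median of 2.26 added, they were -1.59, -1.40 and -0.58. With either, miR-365-3p was no longer past 2-fold, at 1.74-fold lower under the smaller. The place of miR-365-3p from the lowest difference ran from 11 to 42. It was 14, 25 and 42 with the 3 pseudocounts in rising order and 16 after quantile normalization. miR-193a-3p and miR-193b-3p stood at 1 to 6 under the 3 pseudocounts and 4 scalings run. With 2.26 units added the pair stood at 1 and 4, and with 11.0 units at 1 and 3, so other probes then lay between them. Scaling on the median or on the 75th percentile shifts all probes alike, so neither could change a place. With 11.0 units added, the pooled 75th percentile, the differences were -1.31, -0.96 and -0.20, and miR-193b-3p was 1.95-fold lower.

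**Figure D5:**
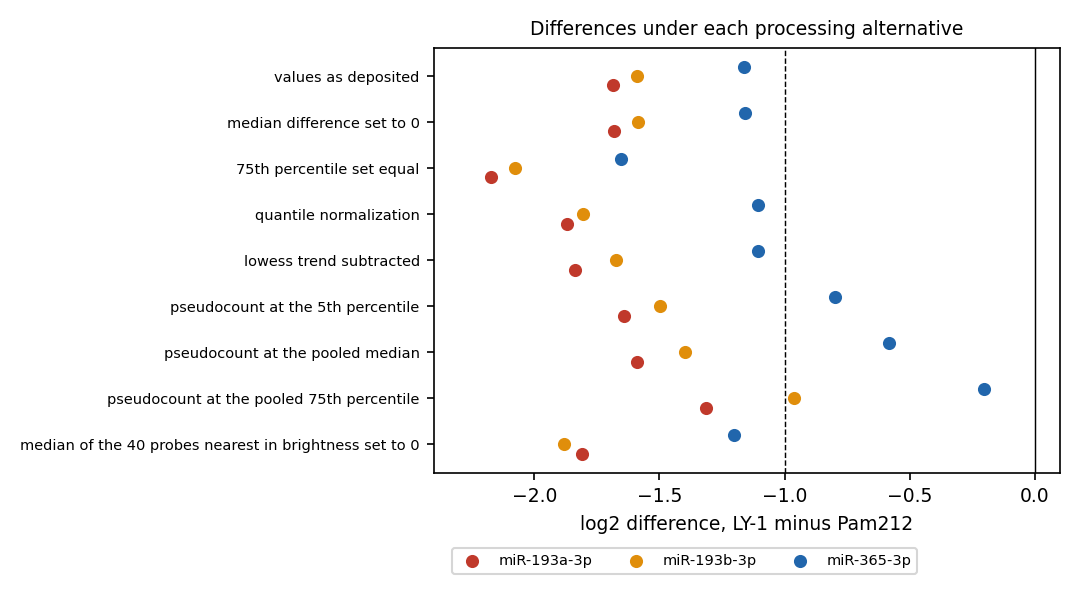
Log2 difference of each miRNA, LY-1 minus Pam212, under each scaling and pseudocount, with a dashed line at 2-fold and a solid line at 0. miR-193a-3p stays between -2.17 and -1.31, miR-193b-3p between -2.08 and -0.96, and miR-365-3p between -1.65 and -0.20.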

How the data were processed

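Per the labels' protocols, RNA was isolated on columns that retain small RNAs and then tagged with the dye Hy5 (miRCURY LNA labelling). The authors deposited 1 linear intensity per probe and array. Scanning, background treatment, combination of duplicate spots, scaling and the meaning of null cells are not given in the sources used here, and the precision of a single value is unknown, since 1 array per line limits every comparison.

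Log2 differences (LY-1 minus Pam212) were computed without a pseudocount and without further scaling for the 354 probes with 2 values. No test was possible, and 2-fold is a size threshold. Counts used probes whose brighter value reached the pooled median. Members and lists were chosen with earlier results of these data known. Probes named beside the 3 members are the nearest in log2 intensity. By rule 3 nearest probes per miRNA were to be named, of which 2 are identified because accessions without names carry little meaning. The planned lists of squamous carcinoma miRNAs and cell type markers, including markers that would check the keratinocyte label, were not analysed here, because accessions could not be matched to names. The scripts were tested on simulated data without noise, which checks the arithmetic and not the precision of a reading. Python 3.11.15, numpy 2.4.6, pandas 2.3.3, statsmodels 0.14.6 and matplotlib 3.10.9 were used.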

Additional observations from a re-analysis of the deposited data

How the results depend on the processing

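None of the differences of miR-193a-3p, miR-193b-3p and miR-365-3p changed sign under any scaling or pseudocount run, and a pseudocount cannot change it. Values that moved by at least 0.1 on the log2 scale are given in that order of miRNAs. They were -2.17, -2.08 and -1.65 with the 75th percentiles set equal, -1.87 and -1.81 (the miR-193 pair) after quantile normalization, -1.84 (miR-193a-3p) after a lowess trend, and -0.80 (miR-365-3p) with the 5th percentile added. Of the alternatives chosen after seeing the data, the pooled median added gave -1.40 (miR-193b-3p) and -0.58 (miR-365-3p), the pooled 75th percentile added gave -1.31, -0.96 and -0.20, and centring on the 40 probes nearest in brightness gave -1.81 and -1.88 for the miR-193 pair. The difference between the miR-193 pair, -0.09, moved to -0.35 with the 75th percentile added. That of miR-193b-3p minus miR-365-3p, -0.43, was -0.70 after quantile normalization, -0.56 after lowess, and -0.70, -0.81 and -0.76 with the 3 pseudocounts in rising order. Neither difference was computed for the centring on the 40 nearest probes. In that setting the order of the pair was reversed, with miR-193b-3p at -1.88 below miR-193a-3p at -1.81.

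Probes at least 2-fold higher and lower in LY-1, 32 and 16 as deposited, numbered 17 and 48 with the 75th percentiles set equal, and 17 and 4 with the floor at the pooled 75th percentile. They numbered 18 and 6 with both values at the floor, 63 and 43 at 1.5-fold, and 15 and 7 at 3-fold. Lower probes numbered 8 and 7 with the 2 smaller pseudocounts, and the largest left 8 higher and 2 lower. Stricter floors test fewer probes. Apart from these constructions the cause was not tested. The squamous carcinoma list was not run, for want of names. No paired analysis was possible because each line has 1 array, and no replicate could be left out.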
